A study of Mus musculus with 10 samples.

Results

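Effector cytokines and chemokines are the secreted products through which NK cells and type 1 innate lymphoid cells (ILC1) act on other cells. The genes described here were 10 of the 24981 genes in the tables, chosen by symbol: the chemokine genes Xcl1, Ccl3, Ccl4 and Ccl5, the interferon gene Ifng, the tumour necrosis factor family genes Tnf, Lta and Ltb, and the colony stimulating factor genes Csf1 and Csf2. All 10 were present in every library. RNA was sequenced from sorted cells of BALB/C mice that received either vehicle or tofacitinib, an inhibitor of the Janus kinases JAK1 and JAK3, by oral gavage at 30 mg/kg, 2 times per day for 7 days. The NK cells were NKp46+ CD3- cells of the spleen, and the ILC1 were CD3- Nkp46+ DX5dim TRAIL+ cells of the liver. Each cell type had 3 vehicle libraries and 2 tofacitinib libraries, and each library held the cells of several pooled animals, so the spread between libraries is a spread between pools and not between animals. The study asked how JAK inhibition changed the transcriptome of both cell types.

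NK cells and ILC1 hold mRNA of several cytokines and chemokines before they meet a stimulus, which lets them secrete soon after activation. Interferon gamma activates macrophages and antigen presentation, XCL1 attracts cross-presenting dendritic cells through its receptor XCR1, and CCL3, CCL4 and CCL5 attract myeloid cells and lymphocytes. Cytokines such as IL-15 and IL-12 signal in these cells through JAK kinases and STAT transcription factors, and transcription and mRNA decay both set the level of a cytokine mRNA.

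In mm10, the genome build of the files, Tnf (17:35199381-35202007, minus strand) and Lta (17:35203165-35205351, minus strand) lay 1157 bp apart, with Ltb (17:35194439-35196320, plus strand) 3060 bp from Tnf on its other side, all within 10.9 kb. Ccl3 (11:83647844-83649355, minus strand) and Ccl4 (11:83662584-83664683, plus strand) were separated by 13228 bp, and Ccl5 (11:83525778-83530518, minus strand) lay within 139 kb of both. Ifng (10:118441046-118445892, plus strand), Xcl1 (1:164931644-164935527, minus strand), Csf1 (3:107741048-107760469, minus strand) and Csf2 (11:54247271-54249667, minus strand) stood apart from these clusters. The annotation also placed other transcripts over 3 of these genes. Of the 50-base words in their transcripts, 13.5% of those of Ifng also occurred in Gm49751, 10.8% of those of Xcl1 in Gm20743 on the opposite strand, and 6.39% of those of Csf2 in its antisense transcript Gm12223. Gm49751 lies on the same strand as Ifng, so strand could not separate reads from that stretch. Reads from the stretches of Xcl1 and Csf2 cannot be assigned to one gene without strand. The strand setting of the counting was not given in the sources used here. The other 7 genes shared no such word with another gene.

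The 250 bases before the transcript start are shown for 4 of the 8 members found in the RefSeq promoter table (GRCm38.p6): Ifng (chr10:118440796-118441045, plus strand), Lta (chr17:35205352-35205601, minus strand), Ltb (chr17:35194257-35194506, plus strand) and Xcl1 (chr1:164935523-164935772, minus strand). The first 3 are the members whose promoter held a match to the STAT motif TTCNNNGAA, and Xcl1 is shown because it is described beside Ifng in NK cells. Capitals mark matches to the STAT motif, to the NF-kB consensus and to TATAAA. Positions are counted from the RefSeq start, which for Ltb and Xcl1 lies inside the gene span given above. Part of those windows therefore falls within that span.

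Ifng: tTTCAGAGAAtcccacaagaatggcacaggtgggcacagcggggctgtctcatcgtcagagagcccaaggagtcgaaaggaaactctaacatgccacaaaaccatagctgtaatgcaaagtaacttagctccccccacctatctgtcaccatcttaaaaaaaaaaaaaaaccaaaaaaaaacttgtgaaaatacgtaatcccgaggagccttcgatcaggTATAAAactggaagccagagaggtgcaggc
Lta: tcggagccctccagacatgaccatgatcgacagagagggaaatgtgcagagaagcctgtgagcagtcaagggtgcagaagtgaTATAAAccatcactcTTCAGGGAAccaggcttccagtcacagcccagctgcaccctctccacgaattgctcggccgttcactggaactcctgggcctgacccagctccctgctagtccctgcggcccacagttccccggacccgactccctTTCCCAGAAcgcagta
Ltb: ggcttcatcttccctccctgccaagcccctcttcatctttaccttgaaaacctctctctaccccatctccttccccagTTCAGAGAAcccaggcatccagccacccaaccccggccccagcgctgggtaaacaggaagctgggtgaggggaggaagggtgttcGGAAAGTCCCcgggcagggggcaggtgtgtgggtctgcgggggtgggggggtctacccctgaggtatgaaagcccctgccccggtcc
Xcl1: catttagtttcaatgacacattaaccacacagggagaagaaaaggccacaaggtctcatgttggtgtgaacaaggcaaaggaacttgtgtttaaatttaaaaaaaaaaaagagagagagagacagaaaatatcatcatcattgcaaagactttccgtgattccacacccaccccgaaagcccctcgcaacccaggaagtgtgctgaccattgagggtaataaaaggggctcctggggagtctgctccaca

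The STAT motif, which reads the same on both strands, began 249 bases before the start in Ifng, 172 bases before it in Ltb, and 152 and 16 bases before it in Lta. These 3 of 8 members compare with 8.29% of all 32817 promoter windows of 300 bases. The NF-kB consensus was found in Csf1, 154 bases before the start, and in Ltb, 87 bases before it, against 4.50% of all windows. TATAAA on the strand of the gene lay 30 bases before the start in Ifng, 29 in Tnf and 167 in Lta, against 8.32% of windows. None of the 8 members held the AP-1 motif TGANTCA (7.81% of windows), the T-box motif AGGTGTGA on either strand (1.27%) or the CRE motif TGACGTCA (1.79%). Ccl4 and Ccl5 had no promoter window, so all of these motifs were searched in the other 8 members only. A match describes letters only, and matches of different motifs did not overlap.

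Values are RPKM, which corrects read numbers for the length of a gene's exons and for sequencing depth, so levels can be set beside each other between genes within a library. The libraries held 29199973 to 79258362 alignments. NK cells and ILC1 came in tables of their own, each with its own normalization, and levels are set side by side between cell types without a test. All NK libraries were from spleen and all ILC1 libraries from liver. Cell type, organ and handling therefore cannot be told apart in any comparison between them. Over the genes tested, the median RPKM was 12.5 to 12.9 in the NK libraries but 7.58 to 13.2 in the ILC1 libraries. The sample sheet placed ILC1 vehicle 2 and tofacitinib 1 in the same sequencing run, vehicle 3 and tofacitinib 2 in another, and vehicle 1 alone in a run. The low medians, 7.58 and 8.94, were those of vehicle 2 and tofacitinib 1. Eomes, a T-box factor of NK cells that ILC1 lack, stood at 195 ± 14.9 RPKM in vehicle NK cells and at 3.57 ± 1.20 in vehicle ILC1 (SD, n = 3 each), and the ILC1 marker Cxcr6 ranged from 5.86 to 10.1 in NK libraries and from 136 to 254 in ILC1 libraries. ILC1 tofacitinib 1 stood apart in markers of other cells: the summed RPKM of 10 neutrophil genes was 169 in it against 13.0 to 28.5 in the other ILC1 libraries, and that of 7 erythroid genes was 249 against 0.953 to 20.0. In NK vehicle 1 the erythroid sum was 203 against 32.2 to 69.9 in the other NK libraries. The summed RPKM of 8 B cell genes was 80.0 to 118 in vehicle NK libraries and 98.8 and 128 in tofacitinib NK libraries. In ILC1 libraries it was 8.94 to 27.5. The part of B cells in the NK values of the 10 genes was not tested.

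Ccl5 and Xcl1 were the chemokine genes that differed most between the cell types. Ccl5 was among the most abundant mRNAs of both. In vehicle NK cells it reached 5469, 5369 and 4477 RPKM (replicates 1 to 3), rank 2 or 3 among all genes of the library, and in vehicle ILC1 2221, 1235 and 2500 RPKM, rank 4 to 7. The NK mean was 2.57-fold higher, and the lowest NK library was 1.79 times the highest ILC1 library. Xcl1 had the opposite order. It stood at 62.9, 37.6 and 40.4 RPKM in vehicle NK cells and at 843, 515 and 1040 RPKM in vehicle ILC1, a 17.0-fold higher mean, with no overlap between the groups. In ILC1 it ranked between 26 and 41 among all genes under vehicle and at 61 in both tofacitinib libraries. Ccl3 was the member whose vehicle ranges overlapped between the cell types, at 84.4, 63.3 and 52.4 RPKM in NK cells and 88.1, 54.2 and 131 in ILC1. Ccl4 stood at 82.8, 66.9 and 55.6 RPKM in NK cells and at 98.6, 85.2 and 139 in ILC1. The ILC1 values of Ccl4 lay above those of NK cells, but the lowest was only 1.03 times the highest NK value.

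The interferon, tumour necrosis factor family and colony stimulating factor mRNAs were all higher in vehicle ILC1 than in vehicle NK cells, with no overlap of the libraries. Ifng stood at 25.4, 19.4 and 17.5 RPKM in NK cells and at 84.1, 58.1 and 138 in ILC1, a 4.50-fold higher mean. Tnf, which encodes an inflammatory cytokine shed from the cell surface, was at 4.30, 2.33 and 3.09 RPKM in NK cells and at 20.9, 14.8 and 30.7 in ILC1, 6.83-fold higher. These values put the Tnf mRNA well below Ifng in each library of both cell types. Ltb, whose product forms the membrane lymphotoxin complex with that of Lta, was the most abundant of its family, at 235, 249 and 208 RPKM in NK cells and 604, 304 and 541 in ILC1. Lta itself was low, at 1.33, 0.298 and 0.805 RPKM in NK cells and 2.75, 2.41 and 2.36 in ILC1. The ILC1 mean of Ltb was 2.09-fold higher and that of Lta 3.09-fold higher. Csf1, the growth factor of macrophages, had the largest difference: 0.0650, 0.284 and 0.270 RPKM in NK cells against 12.6, 7.11 and 12.7 in ILC1, a 52.2-fold higher mean. Csf2, which encodes GM-CSF, stood at 1.41, 0.319 and 1.24 RPKM in NK cells and at 7.39, 4.01 and 5.52 in ILC1, 5.71-fold higher. In all, the vehicle libraries of ILC1 lay above those of NK cells for 8 of the 10 genes, below for Ccl5, and overlapped for Ccl3. The same 10 comparisons under tofacitinib gave the same sides, with mean ratios of 19.9 for Xcl1 in favour of ILC1 and 2.11 for Ccl5 in favour of NK cells. The share of all genes that separated in this way was not computed, so these counts describe the 10 genes only. Since cells were sorted in bulk, more cells with a transcript and more transcript per cell cannot be told apart, and neither can cell type and organ.

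**Figure D1:**
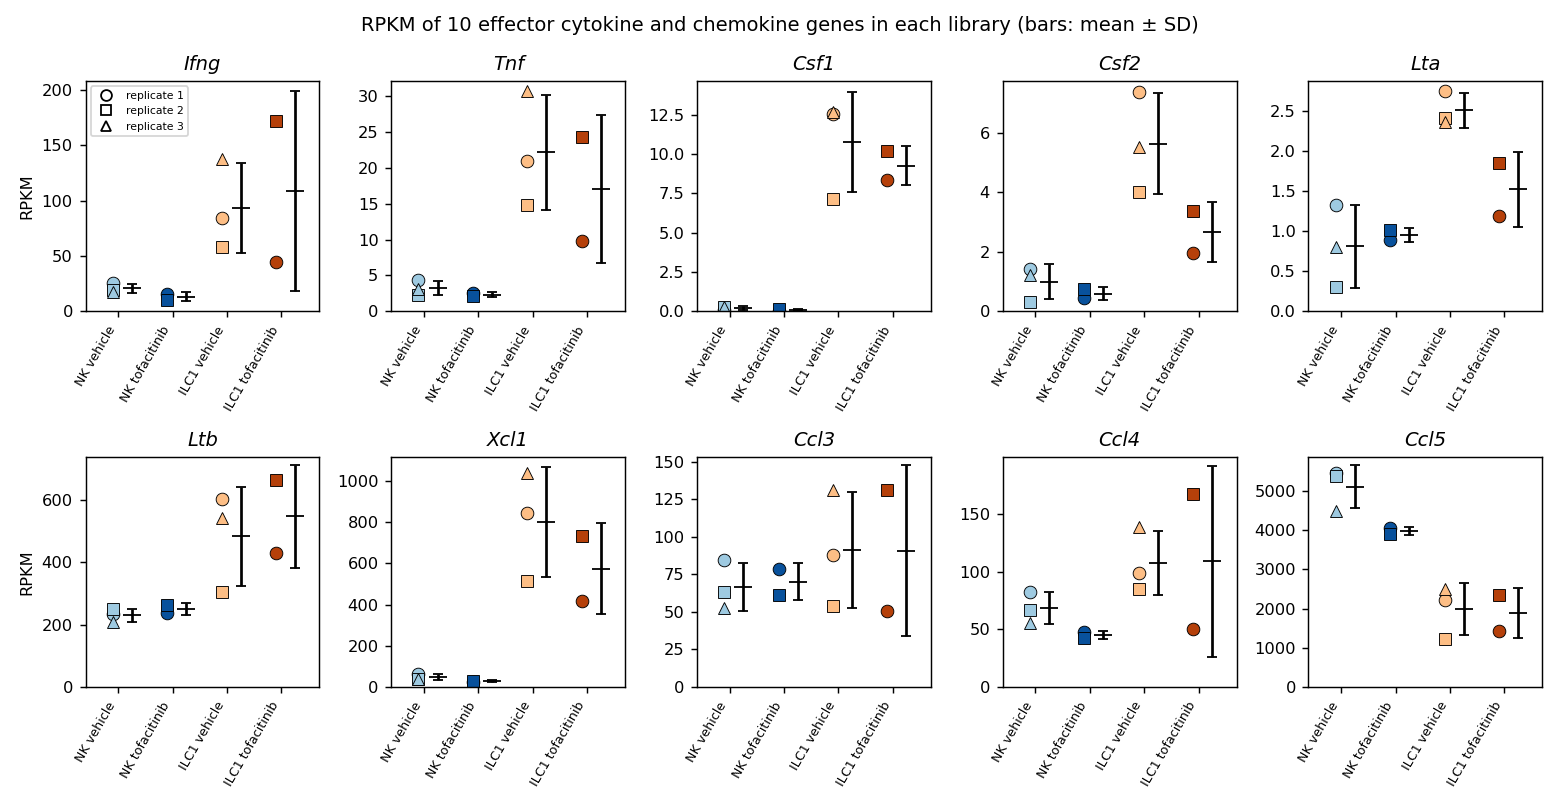
RPKM (linear axis from 0) of each of the 10 genes in the 10 libraries, by cell type and treatment; symbols mark the replicate number, and bars show the mean ± SD of 3 vehicle or 2 tofacitinib libraries. Csf1 and Xcl1 are separated most between the cell types, and the ILC1 libraries spread more widely than the NK libraries, as for Ifng between 44.6 and 172 RPKM under tofacitinib.

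Ranked by mean RPKM, vehicle NK cells held Ccl5, Ltb, Ccl4, Ccl3, Xcl1, Ifng, Tnf, Csf2, Lta and Csf1 in falling order. Ccl4 and Ccl3, Ccl3 and Xcl1, and Csf2 and Lta were neighbours whose libraries overlapped, while the other neighbours did not. Vehicle ILC1 held Ccl5, Xcl1, Ltb, Ccl4, Ifng, Ccl3, Tnf, Csf1, Csf2 and Lta, with overlap between Xcl1 and Ltb, between Ccl4 and Ifng, between Ifng and Ccl3, and between Csf1 and Csf2. Ccl5 made up 92.1% ± 0.392 of the summed RPKM of the 10 genes in vehicle NK cells and 55.0% ± 0.798 in vehicle ILC1 (SD, n = 3 each). Xcl1 made up 0.844% ± 0.203 in NK cells and 22.2% ± 0.919 in ILC1. These shares were taken within each library and do not depend on a factor common to all genes of that library. The make-up of ILC1 thus rested on Ccl5, Xcl1 and Ltb, that of NK cells on Ccl5.

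**Figure D2:**
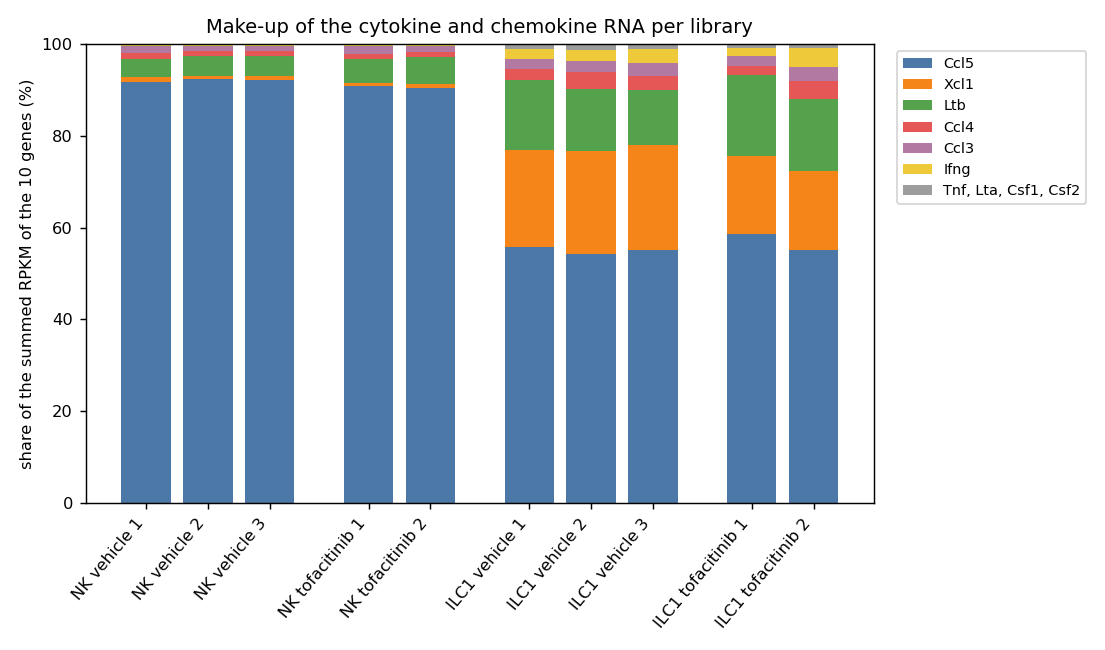
Share of each gene in the summed RPKM of the 10 genes (vertical axis, percent) in each library; Tnf, Lta, Csf1 and Csf2 are drawn together. Ccl5 fills 90.5% to 92.4% of every NK column, and the Xcl1 segment of ILC1 covers 21.2% to 22.9% in vehicle libraries and 17.0% to 17.2% in tofacitinib libraries.

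The treatment comparison in NK cells asked whether the inhibitor changed these mRNAs in the spleen. No member passed the test, and the 3 with the smallest p, Ccl4, Ifng and Xcl1, had lower values in both tofacitinib libraries than in any vehicle library. Of the 10 genes, 7 passed the level required for testing (a group mean of log2(RPKM + 0.1) above 1 in at least 1 group), and 0 of the 7 had an adjusted p under 0.05 (limma, Benjamini-Hochberg over 9472 genes), against 4.81% of all genes tested. At an unadjusted p under 0.05 there were 3 of 7, against 23.3% of all genes, and all 3 were lower, against 13.1%. The tofacitinib libraries lay below every vehicle library for 4 of the 7, Ifng, Xcl1, Ccl4 and Ccl5, against 23.9% of all genes, and above for none, against 20.2%. The change was below 0 in 5 of the 7, against 52.4% of all genes, and the median change of the 7 was -0.42 on the log2 scale and that of all genes -0.01. The summed RPKM of 9 NK cell marker genes was also lower, at 6211 and 6590 under tofacitinib against 7539 to 8637 under vehicle. The largest part of this sum was Gzma, at 4124 and 3786 RPKM under tofacitinib against 4696 to 5562 under vehicle. Klrk1 and Klrd1 overlapped between the groups, and the other listed genes lay below their vehicle range. The part of this difference in the values of the members was not tested.

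Among the chemokines of NK cells, Ccl4 and Xcl1 had lower values under tofacitinib and Ccl3 did not. Ccl4 stood at 47.4 and 42.3 RPKM under tofacitinib, both below the lowest vehicle value of 55.6. Its log2 change was -0.59 (SE 0.15, 95% interval -0.93 to -0.26, unadjusted p = 0.00327, limma adjusted p = 0.0594). Xcl1 stood at 26.6 and 31.2 RPKM, below the lowest vehicle value of 37.6, or -0.66 on the log2 scale (SE 0.19, interval -1.11 to -0.22, adjusted p = 0.0882 by limma). Whether they passed the test depended on the libraries and on the fit. Without vehicle 3 the adjusted p of Ccl4 was 0.0243 (log2 change -0.73), and without vehicle 2 that of Xcl1 was 0.0350 (log2 change -0.80). With a replicate block, Ccl4 and Xcl1 passed with the number of the labels (adjusted p = 2.54e-06 and 0.000218) and with the letter of the sample sheet (0.0298 and 0.0235), though neither is stated to mark libraries made together. Every block fit in NK cells left 1 residual degree of freedom per gene. The letter block gave the same changes as leaving out vehicle 1, -0.445 and -0.435, where the limma adjusted p was 0.113 and 0.0904. The highest adjusted p over the settings tried was 0.436 for Ccl4 and 0.539 for Xcl1. Ccl5, at 4054 and 3914 RPKM under tofacitinib, was also below its vehicle range, by -0.35 on the log2 scale (SE 0.20, adjusted p = 0.326 by limma), and it ranked 1 or 2 among all genes there. Under quantile normalization the Ccl5 change was 0.11. That method sets a value by its rank in the library, which for Ccl5 was 2 or 3 under vehicle. It could therefore not show a decrease of Ccl5. Ccl3 overlapped between the groups at 78.9 and 61.3 RPKM, and its log2 change was 0.09 (interval -0.33 to 0.51, limma adjusted p = 0.804).

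Ccl3 and Ccl4, neighbours on chromosome 11 with opposite strands, therefore stood in a different ratio under tofacitinib. The ratio of Ccl4 to Ccl3 within a library was 0.981, 1.06 and 1.06 in vehicle NK cells and 0.601 and 0.689 in tofacitinib NK cells, without overlap. In ILC1 it was 1.12, 1.57 and 1.06 under vehicle and 1.00 and 1.28 under tofacitinib, and the groups overlapped. This ratio was looked at after the values of its genes had been seen and is given without a test.

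**Figure D3:**
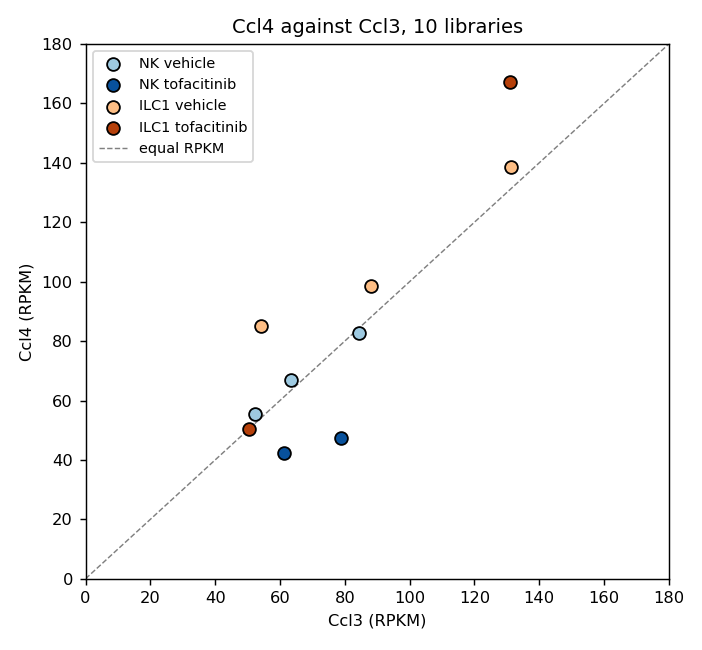
Ccl4 against Ccl3 in the 10 libraries (RPKM on both axes, each point a library, dashed line at equal RPKM). The 3 vehicle NK libraries lie along the line, with ratios of 0.981 to 1.06, and the 2 tofacitinib NK libraries lie below it, at 0.601 and 0.689.

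Ifng, the signature cytokine of both cell types, stood at 15.9 and 10.6 RPKM in NK cells under tofacitinib, below the lowest vehicle value of 17.5. The log2 change was -0.65 (SE 0.19, interval -1.09 to -0.22, unadjusted p = 0.00763, limma adjusted p = 0.0870), and the change ranged from -0.36 without tofacitinib 2 to -0.95 without tofacitinib 1, with no adjusted p under 0.05 when any 1 library was left out. The replicate block by number gave -0.77 (adjusted p = 3.25e-06) and that by letter -0.50 (adjusted p = 0.00328), and the highest adjusted p over the settings tried was 0.528. Tnf, at 2.57 and 2.096 RPKM, overlapped with vehicle, and its change was -0.42 (SE 0.24, interval -0.96 to 0.12, adjusted p = 0.323 by limma). Ltb did so too, at 236 and 262 RPKM, with a change of 0.12 (SE 0.11, interval -0.13 to 0.36, limma adjusted p = 0.552). Lta, Csf1 and Csf2 were too low to be tested in NK cells. Under tofacitinib they stood at 0.890 and 1.01 RPKM for Lta, 0.0441 and 0.120 for Csf1, and 0.436 and 0.760 for Csf2, and each overlapped with its vehicle libraries. As a share of the summed RPKM of the 10 genes, Ltb was 4.17% ± 0.203 under vehicle (n = 3) and 5.68% ± 0.544 under tofacitinib (n = 2), while the sum itself was 4856 to 5966 under vehicle and 4325 to 4463 under tofacitinib. Nearly all of that sum was Ccl5.

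In liver ILC1 the same comparison gave no call, and the gene with the smallest p was Csf2, lower in both tofacitinib libraries than in any vehicle library. All 10 genes were tested, and 0 of 10 had an adjusted p under 0.05 (limma, over 9366 genes), against 0.47% of all genes tested. At an unadjusted p under 0.05 there was 1 of 10, against 2.22%, and it was lower, against 1.41%. The tofacitinib libraries lay below every vehicle library for 2 of 10, Csf2 and Lta, against 3.43% of all genes, and above for none, against 2.07%. The change was below 0 in 8 of 10, against 48.2%, and the median change was -0.18 for the 10 genes and 0.01 for all genes. The standard errors of the 10 genes were 0.45 to 0.56 on the log2 scale, against 0.11 to 0.24 for the 7 genes tested in NK cells. With the ILC1 libraries scaled to the same median, those of the 10 genes were 0.12 (Csf1) to 0.40 (Ifng). The wider errors of the unscaled fit thus hold differences in level common to whole libraries. Markers of B cells moved with the treatment here: the summed RPKM of 8 B cell genes was 8.94 to 14.6 under vehicle and 18.0 and 27.5 under tofacitinib, and 6 of the 8 lay above every vehicle library in both tofacitinib libraries. Of 9 genes listed for dendritic cells, H2-Aa and Cd74, antigen presentation genes that B cells also express, lay above in both. Zbtb46 lay below every vehicle library in both. The others, Clec9a, Siglech, Flt3, Xcr1, H2-Ab1 and H2-Eb1, overlapped with vehicle. No gene of either list was at 0 in all ILC1 libraries, and the part of such cells in the values of the 10 genes was not tested.

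Csf2 stood at 1.96 and 3.37 RPKM in ILC1 under tofacitinib, below the lowest vehicle value of 4.01. Its log2 change was -1.06 (SE 0.46, interval -1.96 to -0.15, unadjusted p = 0.0219, limma adjusted p = 1.00). Within the sequencing runs the difference was -0.99 (tofacitinib 1 against vehicle 2) and -0.69 (tofacitinib 2 against vehicle 3). The median RPKM over the genes tested was 7.58 in vehicle 2 and 8.94 in tofacitinib 1. In the other run it was 13.2 in vehicle 3 and 12.7 in tofacitinib 2. Differences within the runs, here and below, are not corrected for this, so small ones can share the direction of the medians. With the run as a block Csf2 passed the test, with a change of -0.84 and a limma adjusted p of 0.0124. That fit had 1 residual degree of freedom per gene. Leaving out vehicle 1, alone in its run, gave the same change of Csf2 with a limma adjusted p of 0.9999. With the libraries scaled to the same median the adjusted p was 0.0446. The change ranged from -0.68 without tofacitinib 1 to -1.43 without tofacitinib 2. Csf1 did not follow Csf2: at 8.37 and 10.2 RPKM it overlapped with vehicle, and its differences within the runs, 0.23 and -0.31, had opposite signs. The ratio of Csf1 to Csf2, looked at after the values were seen, was 1.70, 1.77 and 2.29 in vehicle ILC1 and 4.27 and 3.02 in tofacitinib ILC1.

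Lta stood at 1.19 and 1.85 RPKM in ILC1 under tofacitinib, below the lowest vehicle value of 2.36, -0.71 on the log2 scale (SE 0.45, interval -1.60 to 0.17, adjusted p = 1.00 by limma) and differences within the runs of -0.96 and -0.33. Tnf, at 9.78 and 24.3 RPKM, overlapped with vehicle overall but was lower within both runs, by -0.60 and -0.34 on the log2 scale. Ltb, at 430 and 664 RPKM, was higher within both, by 0.50 and 0.30. The pooled changes of Tnf and Ltb, -0.46 and 0.21, had intervals of -1.44 to 0.53 and -0.88 to 1.29. Tnf was 0.20 without tofacitinib 1, and Ltb was -0.11 without tofacitinib 2 and -0.097 without vehicle 2. The median change of all genes tested was 0.28, -0.26 and -0.24 in the same fits, in that order. The sign of neither gene held over the libraries, while in these fits Tnf lay below and Ltb above that median.

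Ifng, Ccl3 and Ccl4 had near-equal group means in ILC1, while the libraries of each group were far apart. Ifng stood at 44.6 and 172 RPKM under tofacitinib, on either side of all 3 vehicle values, and its log2 change was 0.00 (interval -1.06 to 1.06). Within the runs it was lower by -0.38 in one and higher by 0.32 in the other. Ccl4 behaved in the same way, at 50.6 and 167 RPKM, with -0.75 and 0.27 within the runs and a pooled change of -0.19. Ccl3 stood at 50.5 and 131 RPKM, with -0.10 and -0.00 within the runs. Together with Tnf they were among the genes that differed most between the tofacitinib libraries of the runs. Tofacitinib 2 exceeded tofacitinib 1 by 1.95 for Ifng, 1.72 for Ccl4, 1.38 for Ccl3 and 1.30 for Tnf on the log2 scale, at percentiles 99.8, 99.6, 99.1 and 98.9 of all 9366 genes, whose median was 0.56. Vehicle 3 exceeded vehicle 2 by 1.25 for Ifng, 0.70 for Ccl4, 1.27 for Ccl3 and 1.04 for Tnf, at percentiles 96.5, 28.5, 97.1 and 82.6, with a median of 0.84 over all genes. Tofacitinib 1 is the library with the high neutrophil and erythroid sums, and the part of those cells in its values was not tested. Without it, the change of Ifng was 0.97, that of Ccl4 0.67 and that of Ccl3 0.61, and without tofacitinib 2 they were -0.97, -1.06 and -0.76. The median change of all genes tested was 0.28 without tofacitinib 1 and -0.26 without tofacitinib 2.

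Xcl1 and Ccl5 in ILC1 differed in how they stood within the library. Xcl1 was at 417 and 732 RPKM under tofacitinib, overlapping with vehicle, with a log2 change of -0.47 (interval -1.56 to 0.62) and lower values within both runs, by -0.30 and -0.51. The pooled change was -0.069 without tofacitinib 1, the library with the high neutrophil and erythroid sums, and -0.88 without tofacitinib 2. The median change of all genes tested was 0.28 and -0.26 in those fits, so Xcl1 lay below it in both. With the libraries scaled to the same median, the change of Xcl1 was -0.48 (interval -0.88 to -0.08, limma adjusted p = 0.205). Ccl5 was at 1438 and 2344 RPKM, with a log2 change of -0.05 (interval -1.14 to 1.04) and 0.22 and -0.09 within the runs. As a share of the 10 genes, Xcl1 was 22.2% ± 0.919 under vehicle (n = 3) and 17.1% ± 0.132 under tofacitinib (n = 2), with no overlap of the libraries, and Ccl5 was 55.0% ± 0.798 and 56.9% ± 2.47, with overlap. The ratio of Ccl5 to Xcl1 was 2.63, 2.40 and 2.40 under vehicle and 3.44 and 3.20 under tofacitinib. It was looked at after the values were seen and is given without a test.

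**Figure D4:**
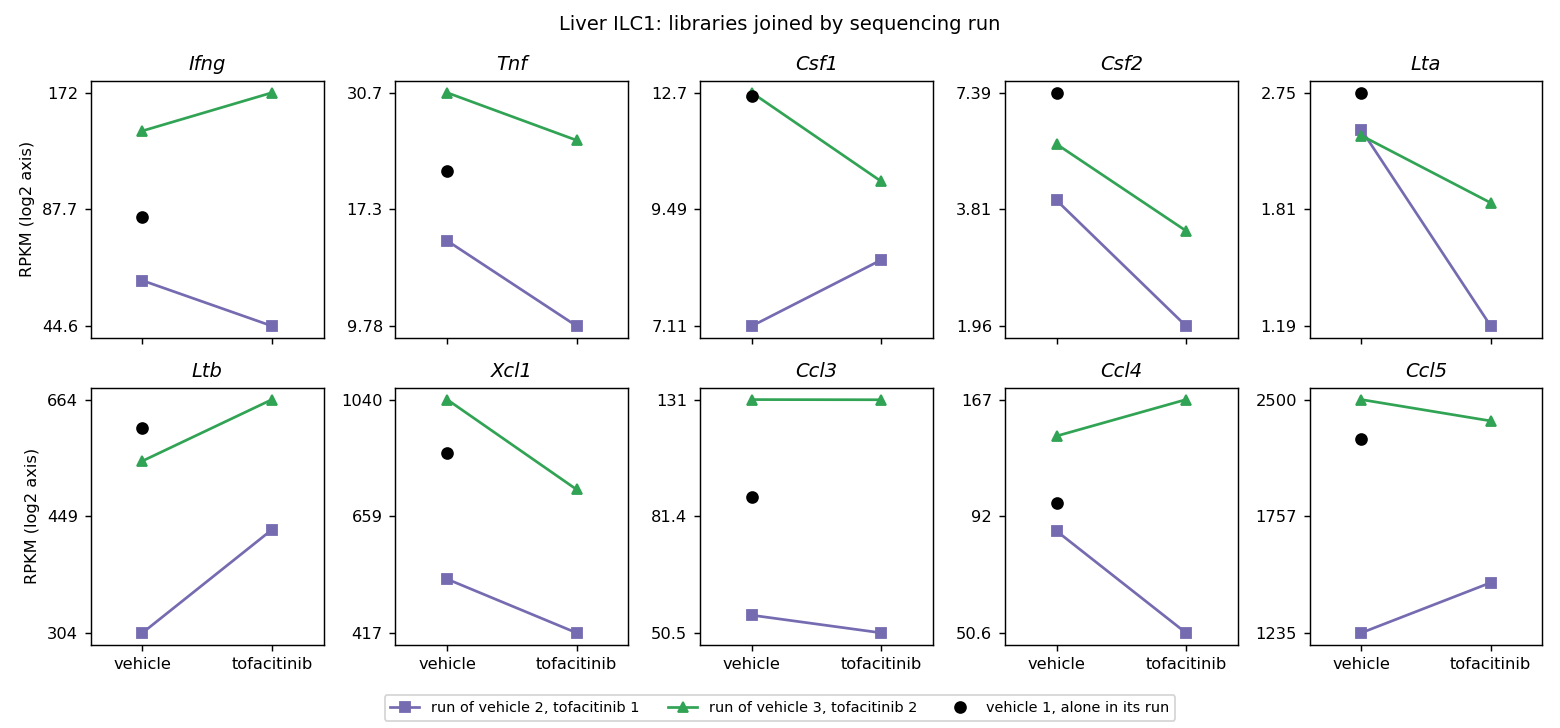
RPKM (log2 axis) of the 10 genes in the 5 ILC1 libraries, with vehicle and tofacitinib of the same sequencing run joined by a line and vehicle 1, alone in its run, as a black point. Csf2, Lta, Tnf and Xcl1 slope down in both runs, Ltb slopes up in both, and Ifng and Ccl4 slope down in one run and up in the other. The values are not corrected for the median of each library.

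Whether the response differed between the cell types was tested for the 7 genes measurable in both. In none did the difference pass the threshold: 0 of 7 had an adjusted p under 0.05 (limma interaction over 8981 genes), against 0.145% of all genes, and 0 of 7 an unadjusted p under 0.05, against 0.835%. The smallest unadjusted p was 0.179, for Ifng, whose response was higher in ILC1 by 0.65 on the log2 scale with an interval of -0.30 to 1.61. The intervals of the other 6 were equally wide, as for Xcl1 at -0.81 to 1.19 and Ccl4 at -0.58 to 1.38, so differences of up to about the size of the NK changes were not detectable here.

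**Figure D5:**
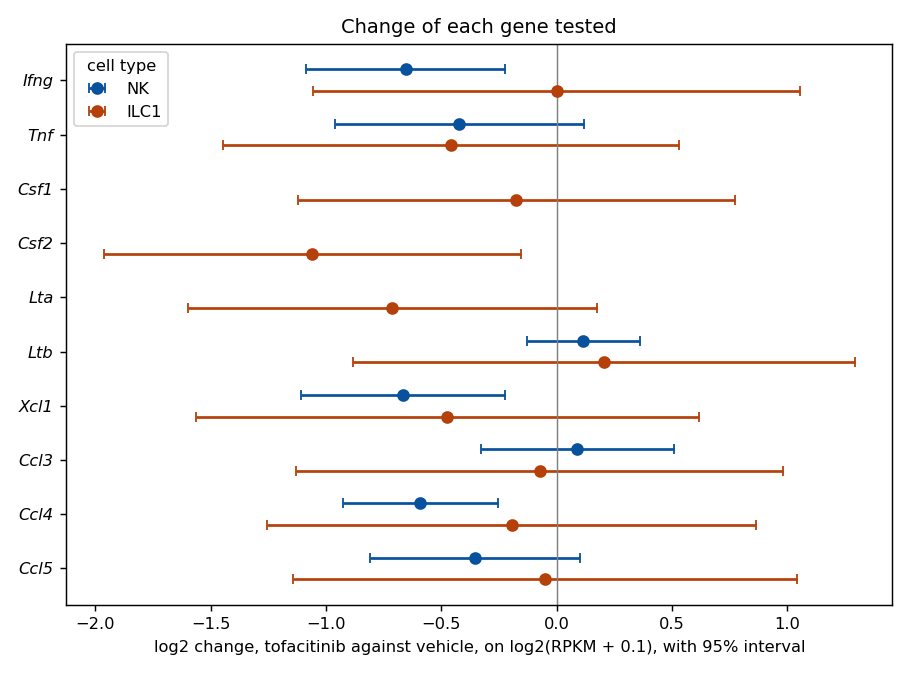
Change of each gene tested, tofacitinib against vehicle, on log2(RPKM + 0.1), with 95% intervals from limma, in NK cells (7 genes) and ILC1 (10 genes). In NK cells the intervals of Ifng, Xcl1 and Ccl4 lie below 0 before adjustment over all genes, and in ILC1 that of Csf2 does so, with intervals there that span about 2 log2 units.

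Other genes of the same system were read from lists. Of 46 other secreted ligands, 7 reached the level for testing in NK cells, of which 2 fell and 0 rose, against 3.02% and 1.79% of all genes. Osm, an IL-6 family cytokine and known STAT5 target, fell from 10.2 ± 1.65 RPKM (n = 3) to 4.80 ± 0.0793 (n = 2), a log2 change of -1.06 (limma adjusted p = 0.00512), and Mif by 0.39 on the log2 scale (adjusted p = 0.0481). In ILC1 8 of the 46 were tested and 0 called, against 0.278% of all genes lower and 0.192% higher. Ccl1, Cxcl10 and Il2 were tested in ILC1 only. Cxcl10, an interferon-induced chemokine, stood at 4.39, 3.03 and 2.05 RPKM in vehicle ILC1 and at 0.729 and 1.13 under tofacitinib, below every vehicle library, or -1.63 on the log2 scale (SE 0.45, adjusted p = 0.0630 by limma). Il2 stood at 4.89 ± 1.32 RPKM in vehicle ILC1 (n = 3) and 5.49 ± 1.14 under tofacitinib (n = 2), against 0.0841 ± 0.0391 in vehicle NK cells, and Ccl1 was listed at 0 in every NK library. Of 15 receptor genes for the members, 8 were tested in ILC1 and 0 called, against 0.47% of all genes.

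Among 32 transcription factors that act at cytokine genes, 29 were tested in NK cells. Egr1, an early response gene, fell by 1.03 on the log2 scale (limma adjusted p = 0.0101). The AP-1 genes Jun and Fos rose by 2.36 (adjusted p = 0.00550) and 2.24 (adjusted p = 0.00987), from 4.84 ± 2.18 to 24.4 ± 7.69 RPKM and from 1.69 ± 0.824 to 7.91 ± 1.94 RPKM. The T-box factor gene Tbx21, which drives Ifng, stood at 191 ± 21.7 RPKM under vehicle and 151 ± 3.38 under tofacitinib (adjusted p = 0.115). In ILC1 31 were tested and 0 called, against 0.47% of all genes. Of 12 genes for regulators of mRNA stability, all tested in NK cells, Zfp36l2, which encodes a protein that binds AU-rich elements and promotes decay of the mRNA, rose from 274 ± 12.9 to 479 ± 14.6 RPKM (log2 change 0.81, limma adjusted p = 0.00437). Its log2 change in ILC1 was 0.69, with 0 of 11 such genes called there, against 0.47% of all genes. Of 8 genes for shedding, processing and release of secreted proteins, 6 were tested in each cell type and 0 called in either, against 4.81% of all genes in NK cells and 0.47% in ILC1.

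Genes known to depend on JAK and STAT5 signalling show what a change past the threshold looked like in the same libraries. Of 10 such genes, 8 were tested in NK cells and all 8 fell, against 3.02% of all genes, with a median log2 change of -1.27. In ILC1 10 were tested and 4 fell, against 0.278% of all genes, with a median of -1.14. Gzmb, a cytotoxic granule protease, fell by 1.54 in NK cells (limma adjusted p = 0.000723) and by 2.58 in ILC1 (adjusted p = 0.00172), and the survival gene Bcl2 by 2.67 (adjusted p = 5.13e-06) and 2.43 (adjusted p = 0.00172). Osm belonged both to this list and to that of the other ligands. These lists were drawn up with results of these data known, so their counts are descriptions.

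The genes most like Xcl1, Ifng and Ccl4, the 3 members tested in both cell types with the largest changes in NK cells, were found by the Euclidean distance over the 10 libraries between log2 values taken relative to the vehicle mean of the same cell type. For Ifng they were Nr4a2, an orphan nuclear receptor gene induced by activation (distance 0.581), and Ccl4 (0.596), against a median distance of 1.59 over 8980 genes. For Ccl4 they were again Nr4a2 (0.362) and the transcribed pseudogene Gm11346 (0.448), with Ifng at position 3. For Xcl1, Nufip1 was at a distance of 0.533, against a median distance of 1.39, and Ifng stood only at position 3022. Tnf was at position 22 of the genes most like Ifng, 23 for Ccl4 and 40 for Xcl1. Some ILC1 points share a sequencing run, and the ILC1 libraries, with the wider spread, weigh most in this distance.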

How the data were processed

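The data were gene tables of reads per kilobase of exon scaled to mapped reads (RPKM) for 10 libraries. The authors had prepared libraries with the NEBNext Ultra II kit, aligned single-end reads of 50 bp to mm10 (TopHat2 2.1.1) and computed the deposited RPKM values in Partek; the submitters' processing notes also name CASAVA 1.8.2. The gene annotation was not given in the sources used here. Deposited values included numbers far below 1 read, so whole reads could not be recovered and no count test or counting interval was made; alignments per library are from the deposited sample sheet.

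Values were analysed as log2(RPKM + 0.1), which understates changes of low genes, in genes with a group mean above 1 in at least 1 group, leaving out 1296 microRNA and small nucleolar RNA names. Two-sided limma tests with moderated variances and a mean-variance trend (limma 3.58.1 under R 4.3.3) were fitted within each cell type over all genes, with Benjamini-Hochberg adjustment and a threshold of 0.05; the interaction was the difference of both responses. In ILC1 the estimated prior degrees of freedom were infinite, so genes of like level shared 1 variance. Replicate numbers, and the run or letter of the sample sheet, entered as blocks in alternatives only. The check for pairing in ILC1 gave correlations of deviations of 0.63 and 0.78 between libraries of the same run in the sample sheet. Coordinates are from GENCODE M21 and promoters from RefSeq. The script was tested on simulated data. Members, lists and tests were chosen with earlier results of these data known. Named genes were all 10 members, up to 4 called genes per list and cell type by smallest p, and the 2 nearest genes of 3 members; Il2, Ccl1, Cxcl10, Tbx21 and ratios of members were added after their values were seen. Some named genes that this rule gives are not reported here. Alternatives were the offset, the filter, the scaling, the variance model, replicate blocks and leaving out each library.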

Additional observations from a re-analysis of the deposited data

How the results depend on the processing

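With these alternatives, 84 of 97 values of single members kept their direction and side of the threshold in NK cells, 115 of 138 in ILC1 and 87 of 105 in the difference between them; the cause of the exceptions was not tested. In NK cells the replicate block by number (correlations of deviations 0.02 and 0.14 within pairs) gave 3 members called lower, with 1814 genes in all against 456. The block by the letter of the sample sheet (correlations -0.14 and -0.16) gave 3 as well, with 651 genes in all. The members were Ifng, Xcl1 and Ccl4 in both. These numbers and letters are not stated to mark a shared animal or day. Quantile normalization gave 1 member called higher, Ltb (0.24, limma adjusted p = 0.0491). It turned Ccl5, whose value there is set by its top ranks, to 0.11. The block by number turned Ccl3 to -0.071. The NK genes called were 95 with no filter and 0 with the variance of each gene alone (1591 at an unadjusted p under 0.05). In ILC1, scaling to the same median and the block by run each gave 1 member called lower, Csf2, and the run block changed no other member's call. The ILC1 genes called, 44, were 0 with no filter (304 unadjusted), 11 with the stricter filter, 250 with median scaling (204 lower, 46 higher, against 26 and 18), 243 with quantile normalization (187 lower, 56 higher), 0 with the variance of each gene alone (130 unadjusted), 2 with the block by number and 405 with that by run. Ifng in ILC1 was -0.011 with median scaling and -0.030 with the run block; Ccl3 was 0.0010 with quantile normalization and 0.23 with the number block, Ccl4 0.0052 with the number block, and Ccl5 0.018, 0.15 and 0.063 with quantile normalization, the number block and the run block. The genes whose response differed between cell types, 13, were 2 with median scaling, 5 with the number block and 47 with the run block; the number block turned Tnf to 0.24 and Ccl3 to 0.31.

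With 1 library left out, the NK members called lower ranged from 0 to 1, and the NK genes called from 37 (without tofacitinib 1) to 790 (without vehicle 2), with 184 without vehicle 1 and 91 without tofacitinib 2. The ILC1 genes called ranged from 6 (without tofacitinib 1) to 120 (without vehicle 2), and those differing between cell types from 3 to 18. Ccl3 ranged from -0.092 to 0.27 in NK cells. The median change of all ILC1 genes tested ranged from -0.26 to 0.28. In ILC1 the ranges of members were -0.97 to 0.97 for Ifng, -1.11 to 0.20 for Tnf, -0.11 to 0.52 for Ltb, -0.76 to 0.61 for Ccl3, -1.06 to 0.67 for Ccl4 and -0.40 to 0.30 for Ccl5. In the difference they were -0.32 to 1.63 for Ifng, -0.69 to 0.62 for Tnf, -0.22 to 0.41 for Ltb, -0.21 to 0.60 for Xcl1, -0.85 to 0.53 for Ccl3, -0.46 to 1.26 for Ccl4 and -0.050 to 0.66 for Ccl5. A group left with 1 library was assumed to vary like the other. With 2 tofacitinib libraries and no counts, the error of a low gene such as Lta or Csf1 in NK cells could not be given.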
